A study of Mus musculus with 4 samples.

Results

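The small leucine-rich proteoglycans are secreted matrix proteins whose core of leucine-rich repeats binds collagen. The 10 genes described here (Epyc, Kera, Lum, Dcn, Omd, Ogn, Aspn, Fmod, Prelp and Bgn) were chosen by name from the 21757 protein-coding genes of the mouse annotation, and all 10 were found in it. H3K27ac, a histone acetylation found at active promoters and enhancers, was profiled by ChIP-seq in cells sorted from fetuses at E14.5, and the deposited data are 4 lists of called peaks. All 4 populations came from the same Col2a1 reporter, an embryonic stem cell line homozygous for an EGFP cassette with a minimal β-globin promoter placed upstream of Col2a1, from which whole fetuses were made by tetraploid aggregation. The groups were limb EGFP+, limb EGFP-, trunk EGFP+ and trunk EGFP-, with 1 library each. Limbs were fore and hind limbs, and trunks ran from neck to tail without internal organs. Every fetus derived from the same stem cell line, and cells of several fetuses were pooled, so that the lists hold no measure of the spread between animals. Col2a1 encodes the main collagen of cartilage, so that the EGFP+ sort takes chondrocytes and other cells with an active Col2a1 locus, and EGFP- cells are all remaining cells of the same tissue, a mixture of many types. In such mixtures a smaller share of cells with the mark and less mark per cell cannot be told apart.

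The family regulates how collagen fibrils form and how thick they grow. Decorin (Dcn), biglycan (Bgn) and asporin (Aspn) form class I, fibromodulin (Fmod), lumican (Lum), keratocan (Kera), osteomodulin (Omd) and PRELP (Prelp) form class II, and epiphycan (Epyc) and osteoglycin (Ogn) belong to class III. Epiphycan is known from cartilage, PRELP from cartilage and basement membranes, fibromodulin from cartilage and tendon, decorin and lumican from fibrous connective tissue, keratocan from the cornea, asporin from perichondrium and periosteum, and osteomodulin, osteoglycin and biglycan from bone and other skeletal tissue. Most of the genes lie next to each other. Epyc, Kera, Lum and Dcn share a stretch of chromosome 10, Omd, Ogn and Aspn lie inside the long gene Cenpp on chromosome 13, Fmod and Prelp are neighbours on chromosome 1, and Bgn stands alone on chromosome X.

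A peak interval is a called stretch of the genome, with rows of one start and end joined. An interval was assigned to a gene's promoter if any of its bases fell between 2 kb before and 500 bp after one of that gene's start sites, and it was distal if it overlapped the promoter of no protein-coding gene. Distal intervals were counted for a member if they lay in its gene body or within 100 kb of one of its start sites. The strength of an interval is the −log10 p of its highest summit, and its place in the list is its rank by that value. Reads at the summit were recovered exactly from the fold and the −log10 p, and they are given with an exact 95% Poisson interval, which covers counting error only. With 1 library per population there was no test between populations. A missing interval means that no peak was called there, not that the mark was absent, and the weakest called summits held 7 reads in 3 lists and 8 in the trunk EGFP- list. The lowest local background that the caller used was 1.49 reads in limb EGFP+, 1.63 in limb EGFP-, 1.60 in trunk EGFP+ and 1.83 in trunk EGFP- cells. Reads are given without scaling for these differences.

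The lists held 40899 intervals for limb EGFP+, 34360 for limb EGFP-, 36231 for trunk EGFP+ and 30716 for trunk EGFP- cells, with 24.0 to 26.0 reads at the median summit. The reporter locus followed its label. The strongest interval at the Col2a1 promoter had 110 reads in limb EGFP+ and 84 in trunk EGFP+ cells against 14 in limb EGFP- cells, and none was called in trunk EGFP- cells. All 10 chondrocyte markers (Col2a1, Col9a1, Col9a2, Col9a3, Col11a1, Col11a2, Acan, Sox9, Matn1 and Matn3) had a promoter interval in both EGFP+ lists and 3 of them in each EGFP- list. Of the connective tissue markers Col3a1, Dpt, Col7a1 and Twist2, 2 had one in each EGFP+ list and 3 in each EGFP- list, with Dpt the gene that differed. Of 4 tendon markers 1 or 2 had one in each list, and of 3 osteoblast markers 2 in each EGFP+ list against 1 in limb EGFP- and 0 in trunk EGFP- cells. Of 6 epithelial markers none had a promoter interval in any list, and of 5 muscle markers 1, Myog, had one, in limb EGFP+ cells. What these other cell types add to the results for the members was not tested. The limb and the trunk libraries carry different lane labels, which leaves tissue and lane impossible to tell apart.

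The sequences below, from the GRCm39 genome, are those of promoters and distal positions that were called in 1 cell fraction and not in the other. For Epyc (chr10:97482697-97482946, plus strand), Dcn (chr10:97315025-97315274, plus strand) and Prelp (chr1:133849153-133849402, minus strand) they are the 250 bases before the start site nearest to the called interval whose upstream bases hold no exon. These promoter stretches are not the called intervals themselves. Those of Epyc and Prelp lie outside every called interval, and that of Dcn overlaps only the end of its weakest limb EGFP- interval. Capitals mark matches, on either strand, to the letters AACAAT or ACAAAG (found in SOX motifs), TGTGGT (RUNX), TGANTCA (AP-1), CAGCTG (an E-box) or TATAAA (the TATA box).
Epyc promoter: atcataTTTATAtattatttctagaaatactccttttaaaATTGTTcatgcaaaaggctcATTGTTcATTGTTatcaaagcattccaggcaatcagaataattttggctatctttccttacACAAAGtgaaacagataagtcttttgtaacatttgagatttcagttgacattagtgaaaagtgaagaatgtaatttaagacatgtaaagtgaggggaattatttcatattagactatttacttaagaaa
Dcn promoter: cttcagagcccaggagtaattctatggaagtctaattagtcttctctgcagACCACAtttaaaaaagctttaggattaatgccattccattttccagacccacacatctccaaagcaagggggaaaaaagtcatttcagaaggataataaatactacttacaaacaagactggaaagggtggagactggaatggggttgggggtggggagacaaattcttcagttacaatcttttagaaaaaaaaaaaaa
Prelp promoter: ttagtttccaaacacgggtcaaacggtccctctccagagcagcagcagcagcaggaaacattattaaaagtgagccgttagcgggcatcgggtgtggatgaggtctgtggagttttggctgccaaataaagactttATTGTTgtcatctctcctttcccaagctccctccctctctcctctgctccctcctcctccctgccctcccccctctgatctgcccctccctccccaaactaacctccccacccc

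The Epyc stretch held 3 matches to AACAAT, 1 to ACAAAG and 1 to TATAAA, with a GC content of 27.6%. Of the 21757 stretches of the same length before the annotated gene starts, 10.3% held AACAAT, 17.1% ACAAAG and 12.5% TATAAA. The Dcn stretch held 1 match to TGTGGT, which 13.8% of all such stretches held, and the Prelp stretch held 1 match to AACAAT. The letters TGANTCA and CAGCTG, found in 6.46% and 12.0% of the stretches, were in none of the 3.

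The distal sequences are 300 bases around the summit of the strongest region called in EGFP+ cells only at the Fmod locus (chr1:133933800-133934099) and of the strongest one called in EGFP- cells only at the Aspn locus (chr13:49699417-49699716), both written on the plus strand. Capitals mark the same letters, without TATAAA.
Fmod, EGFP+ only: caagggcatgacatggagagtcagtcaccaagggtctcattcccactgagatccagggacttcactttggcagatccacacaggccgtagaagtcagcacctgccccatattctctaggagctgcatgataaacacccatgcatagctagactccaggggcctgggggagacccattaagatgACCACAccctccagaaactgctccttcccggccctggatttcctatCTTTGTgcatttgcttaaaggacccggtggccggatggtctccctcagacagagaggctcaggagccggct
Aspn, EGFP- only: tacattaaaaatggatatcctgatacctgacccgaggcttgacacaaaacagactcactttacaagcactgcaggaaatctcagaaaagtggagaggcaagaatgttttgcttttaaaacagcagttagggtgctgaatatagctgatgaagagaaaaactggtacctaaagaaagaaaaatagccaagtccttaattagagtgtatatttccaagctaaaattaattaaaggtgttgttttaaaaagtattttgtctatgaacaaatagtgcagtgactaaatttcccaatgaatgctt

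The Fmod stretch held 1 match each to ACAAAG and TGTGGT, and the stretch at Aspn held no match to any of the letters searched. Among all 42651 distal regions, windows of this length held AACAAT in 12.4%, ACAAAG in 25.5%, TGTGGT in 20.7%, TGANTCA in 8.44% and CAGCTG in 20.3%. By class, ACAAAG was in 24.7% of all regions called in EGFP+ cells only and in 27.7% of those called in EGFP- cells only. For TGTGGT these shares were 21.9% and 20.4%. A match is a description of the letters, not of a bound factor.

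Promoters were compared first, to ask which members carried the mark at their start in each population. Lum, Omd, Ogn and Bgn had a promoter interval in all 4 lists. Prelp had one in both EGFP+ lists and in neither EGFP- list, and Dcn had one in both EGFP- lists and in neither EGFP+ list. Fmod was called in both limb fractions and in trunk EGFP+ cells, Epyc in trunk EGFP+ cells alone, Kera in limb EGFP+ cells alone and Aspn in limb EGFP- cells alone. In number, 7 of the 10 members had a promoter interval in each limb fraction, 7 in the EGFP+ trunk and 5 in the EGFP- trunk. Over all protein-coding genes the share was 54.0%, 51.2%, 52.2% and 52.2% in the same order.

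Between fractions of the limb, 2 members (Kera and Prelp) had a promoter interval in EGFP+ cells and none in EGFP- cells, a pattern found in 4.79% of all genes, and 2 (Dcn and Aspn) had the opposite, found in 2.0%. In the trunk, 3 members (Epyc, Fmod and Prelp) were called in EGFP+ cells alone, against 3.19% of all genes, and 1 (Dcn) in EGFP- cells alone, against 3.29%.

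**Figure D1:**
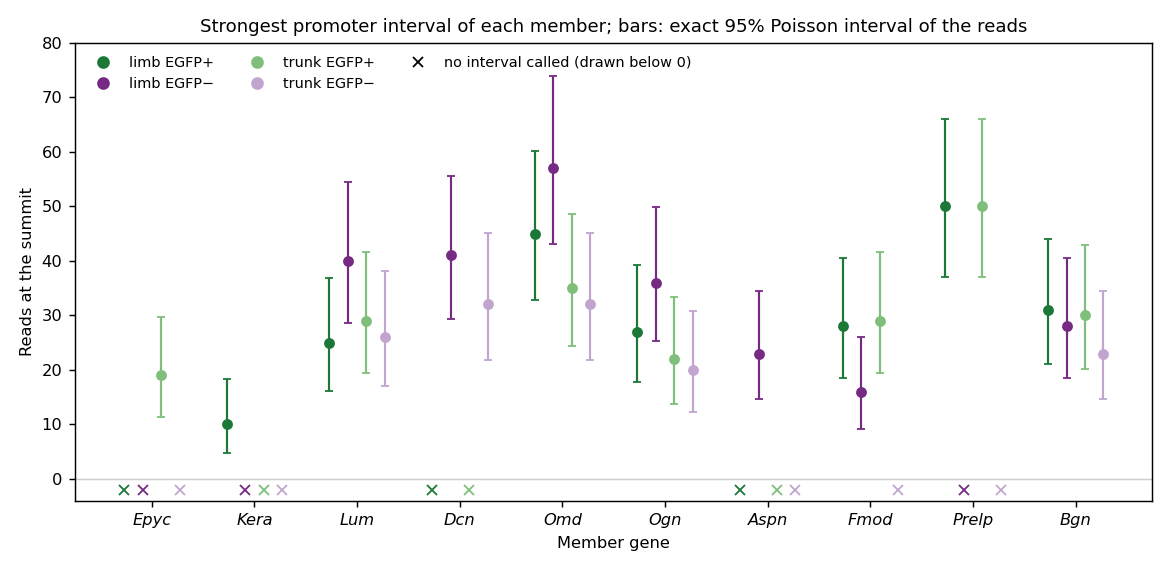
Reads at the summit of the strongest promoter interval (y axis) for each of the 10 member genes (x axis) in the 4 populations; points are reads, vertical bars the exact 95% Poisson interval, and crosses mark lists with no interval called. Prelp shows 50 reads in both EGFP+ lists and crosses in both EGFP- lists, Dcn shows 41 and 32 reads in the EGFP- lists and crosses in both EGFP+ lists, and the points of Lum, Omd, Ogn and Bgn are present in all 4 lists.

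Prelp encodes a heparin- and collagen-binding protein of cartilage. Its intervals did not lie at the 5′ end of the gene record but on both sides of an internal start site at position 133849152 of chromosome 1 (minus strand), 1 of 6 annotated for the gene. In limb EGFP+ cells the stronger interval (chr1:133849446-133849964) had 50 reads (37.1 to 65.9) and a −log10 p of 13.6, which placed it in the upper 39.9% of the list, and its summit lay 462 bp upstream of that start. In trunk EGFP+ cells the stronger one (chr1:133848733-133849121) also had 50 reads (37.1 to 65.9), with a −log10 p of 10.2 in the upper 47.0%, and lay 138 bp downstream. Trunk EGFP+ cells had 3 promoter intervals for Prelp in all, the third at a start site further downstream with 37 reads (26.1 to 51.0). Both EGFP- lists held no interval at any of the 6 Prelp start sites. When only the window at the gene record's 5′ end was used, Prelp had no promoter interval in any list.

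Dcn encodes decorin, the proteoglycan that decorates fibrils of collagen I. Its strongest promoter interval was 718 bp wide in limb EGFP- cells (chr10:97315529-97316246), with 41 reads (29.4 to 55.6) and a −log10 p of 12.8, and 435 bp wide in trunk EGFP- cells, with 32 reads (21.9 to 45.2) and a −log10 p of 7.53. The limb EGFP- list held 3 promoter intervals for Dcn. Neither EGFP+ list held one. At a stricter −log10 q of at least 5 the Dcn call was kept in limb EGFP- cells and lost in trunk EGFP- cells, while Prelp kept its calls in both EGFP+ lists. At a fold of at least 4 over the local background neither gene had a promoter interval in any list, since their strongest folds were 3.67 for Dcn and 3.38 for Prelp.

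Fmod encodes fibromodulin, which binds collagens I and II. At its promoter limb EGFP+ cells had 28 reads (18.6 to 40.5) in an interval of 951 bp. Limb EGFP- cells had 2 intervals, the stronger of 247 bp with 16 reads (9.15 to 26.0) and the other of 446 bp with 14 (7.65 to 23.5). The Poisson intervals overlapped, so that the reads did not separate the limb fractions at this depth. Trunk EGFP+ cells had 2 promoter intervals, the stronger with 29 reads (19.4 to 41.6), and trunk EGFP- cells had none.

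Epyc, Kera and Aspn each had a promoter interval in 1 list, and all 3 were weak. Epyc, the cartilage member of the family, was called in trunk EGFP+ cells with 19 reads (11.4 to 29.7) and a −log10 p of 5.29, in the upper 84.0% of that list, 167 bp downstream of its internal start site at position 97482947 of chromosome 10. Kera, which encodes the corneal proteoglycan keratocan, was called in limb EGFP+ cells with 10 reads (4.80 to 18.4) and a −log10 p of 5.64, near its internal start sites. Aspn, which encodes asporin, was called in limb EGFP- cells with 23 reads (14.6 to 34.5) and a −log10 p of 7.40. The Epyc and Kera calls were lost, and the Aspn call was kept, when each list was cut to its 30000 strongest intervals.

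For the 4 members called in every list, the Poisson intervals of EGFP+ and EGFP- cells overlapped in each tissue. At the promoter of Lum, which encodes lumican, the strongest interval had 25 reads (16.2 to 36.9) in limb EGFP+, 40 (28.6 to 54.5) in limb EGFP-, 29 (19.4 to 41.6) in trunk EGFP+ and 26 (17.0 to 38.1) in trunk EGFP- cells. Its −log10 p was highest in limb EGFP- cells, at 19.3, against 7.17 in limb EGFP+, 8.01 in trunk EGFP+ and 11.4 in trunk EGFP- cells. The summits lay 201 to 240 bp upstream of the nearest internal start site, in an untranslated exon, in 3 lists, and in trunk EGFP+ cells the only promoter interval lay 603 bp downstream of it.

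Omd, which encodes osteomodulin, a matrix protein made by osteoblasts, had the strongest promoter intervals of the family in the limb. The summits held 45 reads (32.8 to 60.2) in limb EGFP+, 57 (43.2 to 73.9) in limb EGFP-, 35 (24.4 to 48.7) in trunk EGFP+ and 32 (21.9 to 45.2) in trunk EGFP- cells. In limb EGFP+ cells the strongest interval lay 344 bp upstream of the Omd start (−log10 p 23.2), while in limb EGFP- cells it lay 1138 bp upstream (−log10 p 23.5). Both positions were called in both limb lists.

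Ogn, which encodes osteoglycin, had 27 reads (17.8 to 39.3) in limb EGFP+, 36 (25.2 to 49.8) in limb EGFP-, 22 (13.8 to 33.3) in trunk EGFP+ and 20 (12.2 to 30.9) in trunk EGFP- cells. Its strongest promoter interval spanned 938 bp in limb EGFP- cells, among the widest 7.94% of that list, and 200 bp in trunk EGFP- cells. In the trunk a stronger interval lay just beyond the Ogn promoter window, with 26 reads in EGFP+ and 32 in EGFP- cells. Bgn, which encodes biglycan, a proteoglycan of bone and cartilage matrix, had 31 reads (21.1 to 44.0), 28 (18.6 to 40.5), 30 (20.2 to 42.8) and 23 (14.6 to 34.5) in the same order, the most even levels among the 4. In limb EGFP+ cells Bgn had 4 promoter intervals, of which a pair lay at its internal start sites, against 1 in each of the other lists. The interval at the first exon spanned 640 bp in limb EGFP+, 608 bp in limb EGFP-, 642 bp in trunk EGFP+ and 440 bp in trunk EGFP- cells.

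Distal intervals were then counted, to ask where the mark lay away from promoters. The windows of the 10 members held 33 distal intervals in limb EGFP+, 31 in limb EGFP-, 39 in trunk EGFP+ and 32 in trunk EGFP- cells, which covered 17742, 13058, 17003 and 12065 bp. Of all distal intervals in each list these were 0.1445%, 0.1745%, 0.2021% and 0.2249%, a lower share in EGFP+ than in EGFP- cells of each tissue. The direction of the difference in number between fractions depended on the length of the lists. Among the 30000 strongest intervals of each list the counts were 18 and 25 in the limb and 30 and 31 in the trunk, for EGFP+ and EGFP- cells. In the upper 50% of each list by rank, promoter intervals included, lay 13 of the 33, 9 of the 31, 14 of the 39 and 5 of the 32. Distal intervals were weaker in general. Their median −log10 p was 7.27, 6.78, 6.80 and 6.59, against 10.3, 9.69, 9.54 and 9.86 for all intervals. Fewer than 50% of all distal intervals thus lay there too. Their exact share in each list is not given here, so the counts of the members there are not compared between fractions.

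Gene by gene, 5 members had more distal intervals in limb EGFP+ than in limb EGFP- cells and 3 had fewer, where 36.0% of all genes had more and 25.2% fewer. In the trunk 6 had more and 3 fewer, where 36.8% of all genes had more and 21.9% fewer. These members share windows and so share intervals. The windows of Epyc, Kera, Lum and Dcn overlap each other, as do those of the members of the chromosome 13 and chromosome 1 loci.

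**Figure D2:**
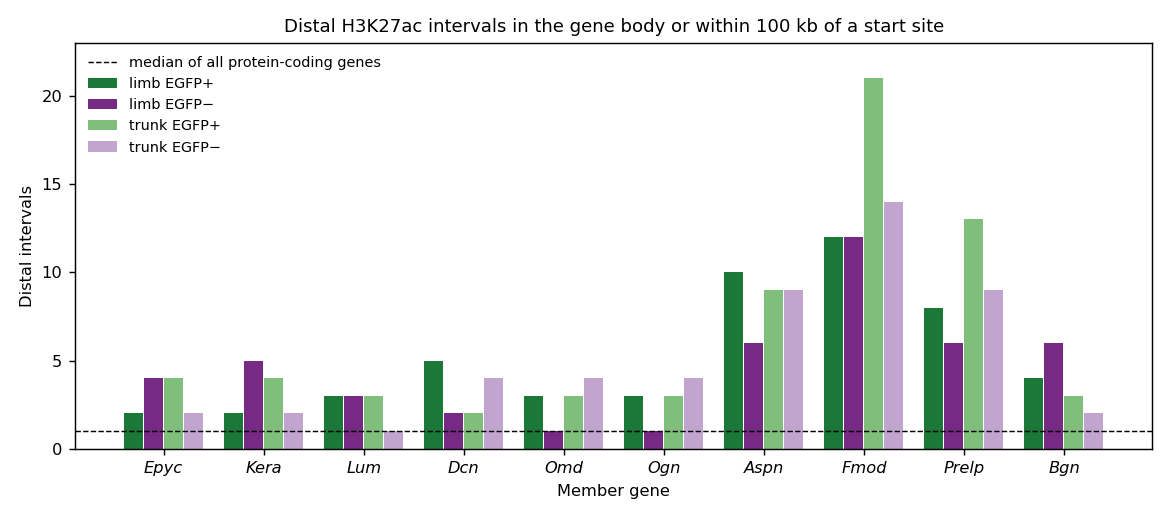
Number of distal intervals (y axis) in the gene body or within 100 kb of a start site of each member (x axis), with 1 bar per population and a dashed line at the median of all protein-coding genes. Fmod stands out with 12 to 21 intervals, followed by Prelp with 6 to 13 and Aspn with 6 to 10, while the other members have 1 to 6.

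Fmod had 12 distal intervals in limb EGFP+, 12 in limb EGFP-, 21 in trunk EGFP+ and 14 in trunk EGFP- cells, more than 97.2%, 98.8%, 99.8% and 99.6% of all protein-coding genes in the same list. Prelp had 8, 6, 13 and 9. Aspn had 10, 6, 9 and 9, most of them far upstream in introns of Cenpp and Ippk. Epyc had 2, 4, 4 and 2, Kera 2, 5, 4 and 2, Lum 3, 3, 3 and 1, Dcn 5, 2, 2 and 4, Omd and Ogn 3, 1, 3 and 4 each, and Bgn 4, 6, 3 and 2. The limb counts of Omd and Ogn depend on a stretch downstream of the Ogn start. It was distal in EGFP+ cells and part of a promoter interval in EGFP- cells. The median over all genes was 1.0 in every list.

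To see which positions were marked in which cells, intervals of the 4 lists that overlapped were joined into regions. A region that overlapped a promoter was not counted as distal, even where some of its intervals were. The 4 loci held 63 distal regions, of which 23 were called in EGFP+ cells only, 19 in EGFP- cells only and 21 in both. Among all 42651 distal regions these classes made up 47.3%, 31.8% and 20.9%. Of the 63, 3 were called in EGFP+ cells of both tissues and in no EGFP- cells, against 10.8% of all distal regions, and 4 in EGFP- cells of both tissues and in no EGFP+ cells, against 4.62%. All 4 lists held 11 of the 63, against 8.87%. Most regions of 1 fraction were thus called in a single list, as were most regions of 1 fraction among all distal regions.

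**Figure D3:**
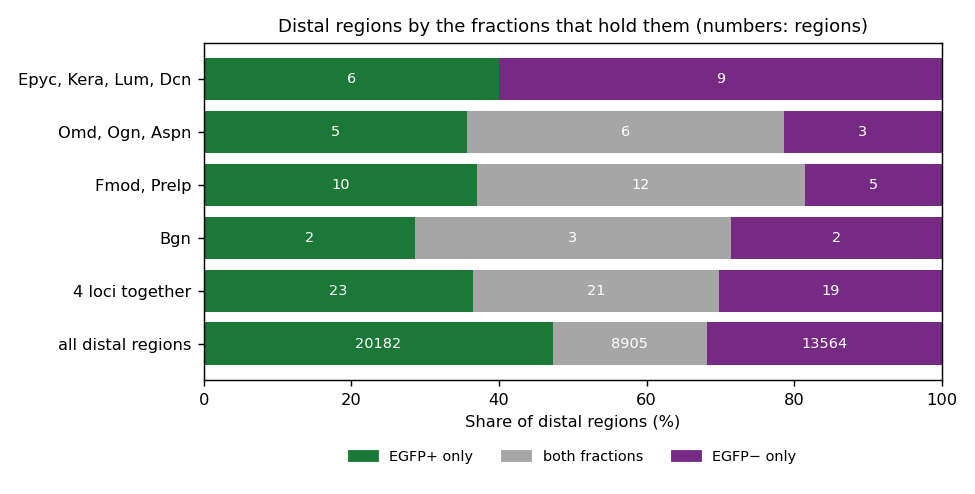
Share of distal regions (x axis, %) called in EGFP+ cells only, in both fractions or in EGFP- cells only, for each locus, the 4 loci together and all distal regions of the genome; numbers in the bars count regions. The locus of Epyc, Kera, Lum and Dcn holds 6, 0 and 9 regions, and the locus of Fmod and Prelp 10, 12 and 5.

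The Fmod and Prelp locus (chr1:133745750-134067128) held the strongest of the 23 regions called in EGFP+ cells only. It lay between the genes, 31.0 kb upstream of Fmod (chr1:133932827-133934864), and Fmod was the gene with the nearest start. In limb EGFP+ cells it was a single interval of 2038 bp with 74 reads (58.1 to 92.9) and a −log10 p of 36.8, in the upper 12.7% of the list. In trunk EGFP+ cells it had 48 reads (35.4 to 63.6) and a −log10 p of 23.5, in the upper 19.1%, with 997 bp covered. Neither EGFP- list held an interval there.

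A further region called in EGFP+ cells of both tissues lay 17.5 kb upstream of Fmod (chr1:133946859-133947839), with 29 reads (19.4 to 41.6) in limb and 18 (10.7 to 28.4) in trunk EGFP+ cells. Its −log10 p was 16.7 in limb and 5.78 in trunk EGFP+ cells. The third strongest of this class at the locus, 47.9 kb upstream of Prelp, was called in trunk EGFP+ cells only (−log10 p 6.88). Less than 500 bp from it on one side lay a region called in trunk EGFP- cells only. Less than 500 bp away on the other side lay one called in limb EGFP- cells and both trunk fractions. Upstream of Prelp, regions 11.6 kb and 35.0 kb away were called in both fractions of the limb and in trunk EGFP+ cells, and beside each lay one that included trunk EGFP- cells. The neighbour 10.9 kb upstream was called in limb EGFP+ and trunk EGFP- cells, and that 35.6 kb upstream in all lists but limb EGFP-. The latter had 32 reads (21.9 to 45.2) in trunk EGFP+ and 17 (9.90 to 27.2) in trunk EGFP- cells, with overlapping intervals. At the region 11.6 kb upstream limb EGFP+ cells had 27 reads (17.8 to 39.3), limb EGFP- cells 14 (7.65 to 23.5) and trunk EGFP+ cells 32 (21.9 to 45.2), with overlapping intervals in the limb.

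The strongest region of this locus called in EGFP- cells only lay between these, 31.5 kb upstream of Prelp (chr1:133889376-133889753), with 14 reads (7.65 to 23.5) in limb and 23 (14.6 to 34.5) in trunk EGFP- cells. The next, 48.6 kb upstream of Fmod, was called in trunk EGFP- cells (−log10 p 7.33), and the third, 26.4 kb downstream of the Fmod start, in both EGFP- lists (−log10 p 6.55 and 5.32). Less than 500 bp from the former lay a region called in trunk EGFP+ cells only. The latter began less than 500 bp from a region called in all 4 lists. On the far side of Fmod, 5 distal regions with the start of Btg2 or Chit1 nearest were called in all 4 lists. The strongest distal region of any member window was 1 of these, 62.3 kb from the Fmod start (chr1:134026272-134027689). It had 67 reads (51.9 to 85.1) in limb EGFP+, 104 (85.0 to 126.0) in limb EGFP-, 51 (38.0 to 67.1) in trunk EGFP+ and 78 (61.7 to 97.3) in trunk EGFP- cells. Both EGFP- values were above the EGFP+ value of the same tissue, with overlapping intervals.

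In number the locus held 14 distal intervals in limb EGFP+, 13 in limb EGFP-, 22 in trunk EGFP+ and 16 in trunk EGFP- cells. When only intervals nearest to a start site of a member were kept, these became 7, 5, 13 and 7. Of its 27 distal regions, 10 were called in EGFP+ cells only, 5 in EGFP- cells only and 12 in both.

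**Figure D4:**
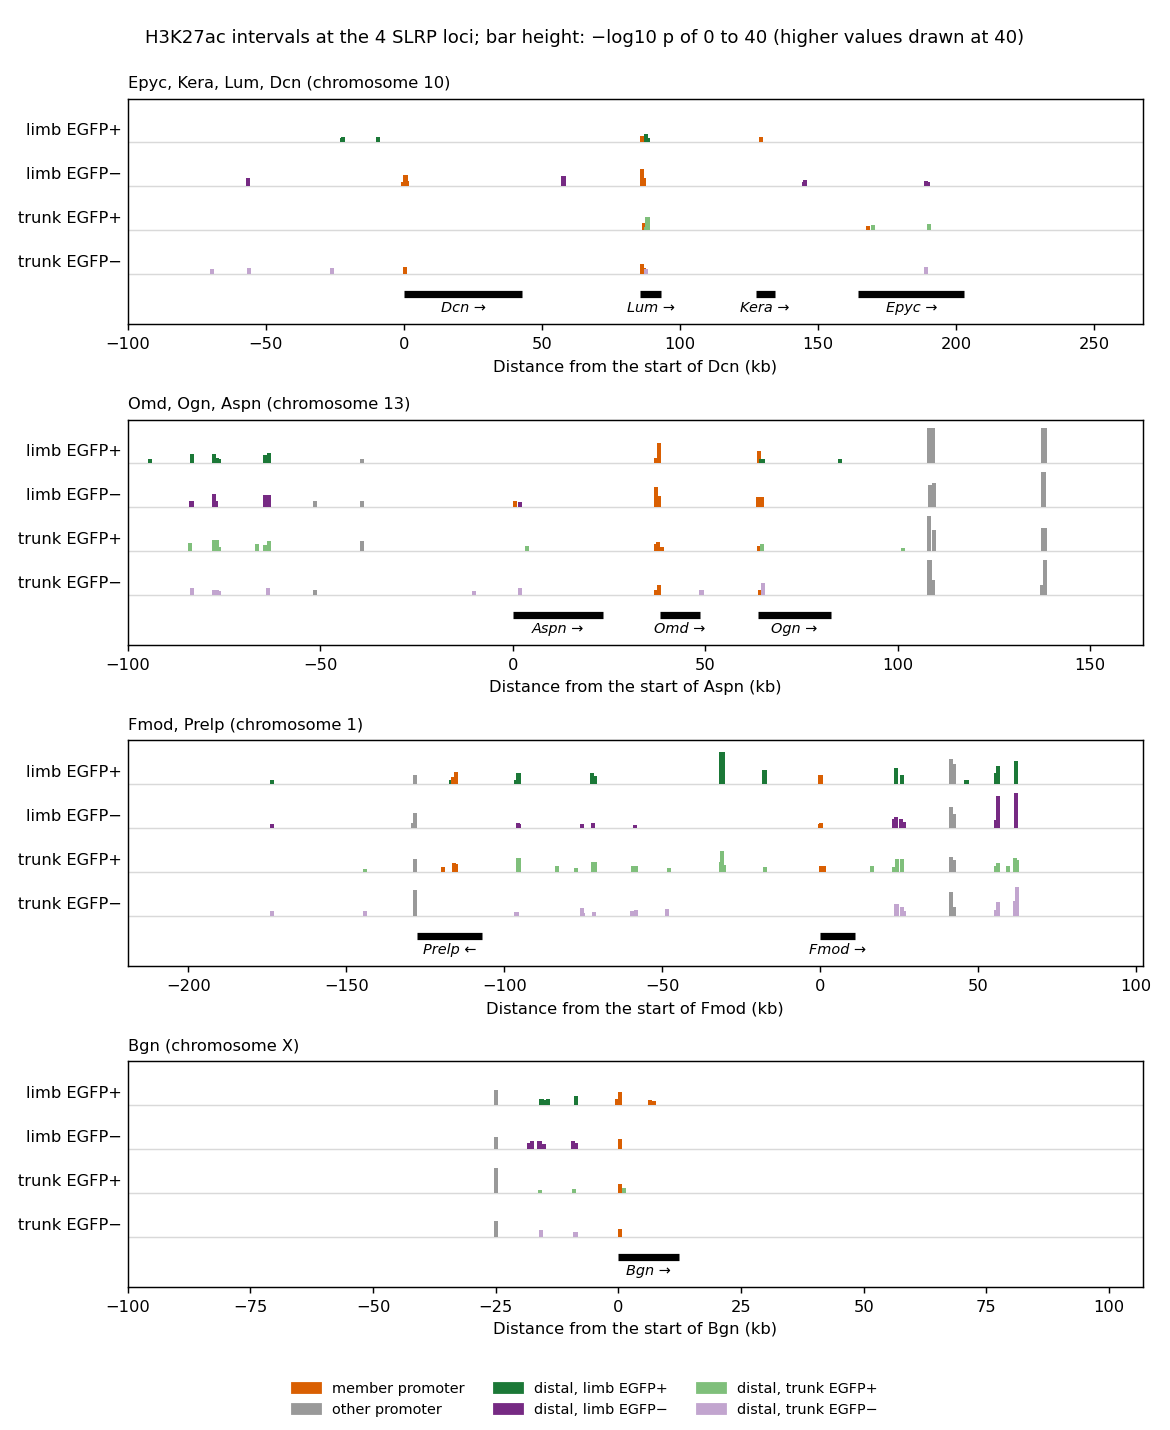
Intervals of the 4 lists at the 4 loci, with the distance from the start of Dcn, Aspn, Fmod or Bgn (x axis, kb) and 1 row per population; bar height is the −log10 p from 0 to 40, bars narrower than a visible minimum are drawn at that minimum, black bars are the member genes and arrows their strand. The tall green bar about 31.0 kb upstream of Fmod appears in both EGFP+ rows and in neither EGFP- row, the orange promoter bars at Dcn appear in the EGFP- rows, and bars 63.4, 76.9, 77.6 and 83.3 kb upstream of Aspn appear in all rows.

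The locus of Epyc, Kera, Lum and Dcn (chr10:97215275-97582947) held 5, 6, 4 and 5 distal intervals in limb EGFP+, limb EGFP-, trunk EGFP+ and trunk EGFP- cells. None of its 15 distal regions was called in both fractions, with 6 in EGFP+ cells only and 9 in EGFP- cells only. Inside Lum, however, distal intervals of limb EGFP+, trunk EGFP+ and trunk EGFP- cells overlapped each other. They were joined with promoter intervals of Lum into a promoter region called in all 4 lists (chr10:97401777-97403246), which is not among the 15. Several of the 15 lay close together, and when regions within 500 bp were joined the counts became 3, 5 and 1 in both. A member had the nearest start site for all 15.

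The strongest region of the locus called in EGFP+ cells only lay in Lum itself, 2.54 kb downstream of its start in an exon with untranslated sequence (chr10:97403376-97403683). It had 39 reads (27.7 to 53.3) in trunk EGFP+ cells with a −log10 p of 14.6, and 21 reads (13.0 to 32.1) in limb EGFP+ cells with a −log10 p of 5.14. It began less than 500 bp from the Lum promoter region called in all 4 lists, which ended at position 97403246. Joining within 500 bp makes these 1 region. Further regions called in EGFP+ cells only were in 1 list each, in an intron of Epyc 25.7 kb from its start (trunk EGFP+, −log10 p 6.78) and 21.9 kb upstream of Dcn (limb EGFP+, −log10 p 6.25).

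One region called in EGFP- cells only, 56.3 kb upstream of Dcn was called in limb EGFP- cells with 19 reads (11.4 to 29.7), and trunk EGFP- cells had their own interval next to it, 56.0 kb upstream, with 17 reads (9.90 to 27.2). An intron of Epyc, 24.6 kb from its start, was called in both EGFP- lists (chr10:97504160-97504863), with 15 reads (8.40 to 24.7) in the limb and 19 (11.4 to 29.7) in the trunk. It lay about 1 kb from the intronic position called in trunk EGFP+ cells. Between them lay a region called in limb EGFP- cells only (chr10:97505010-97505209), and joining within 500 bp makes these 1 region.

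At the locus of Omd, Ogn and Aspn (chr13:49597609-49861349) the lists held 10, 6, 10 and 9 distal intervals in limb EGFP+, limb EGFP-, trunk EGFP+ and trunk EGFP- cells, and 6 of 14 regions were called in both fractions. The strongest, in an intron of Cenpp 77.6 kb upstream of Aspn (chr13:49619743-49620291), had 38 reads (26.9 to 52.2) in limb EGFP+, 39 (27.7 to 53.3) in limb EGFP-, 50 (37.1 to 65.9) in trunk EGFP+ and 21 (13.0 to 32.1) in trunk EGFP- cells. The Poisson intervals of the trunk reads did not overlap, with EGFP+ cells higher, but the local background was also higher there, at 14.7 reads against 6.60. The fold over that background was 3.25 in trunk EGFP+ against 2.89 in trunk EGFP- cells, and 3.39 in limb EGFP+ against 4.54 in limb EGFP- cells. A member had the nearest start site for 5 of the 14 regions.

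Closer to the genes, an intron of Aspn 1.96 kb from its start (chr13:49699323-49699755) was called in both EGFP- lists and in neither EGFP+ list. It had 20 reads (12.2 to 30.9) in limb and 25 (16.2 to 36.9) in trunk EGFP- cells, with −log10 p of 5.90 and 8.15. Another intronic position of Aspn was called in trunk EGFP+ cells only, 3.69 kb from the start (−log10 p 6.08). The remaining regions of 1 fraction named by the rule were called in 1 list each. In EGFP+ cells they lay in an intron of Cenpp 66.4 kb upstream of Aspn (trunk, −log10 p 8.36) and in an exon of Ippk 94.1 kb upstream of Aspn (limb, −log10 p 5.04). In EGFP- cells of the trunk they lay 10.8 kb downstream of the Omd start (−log10 p 5.65) and 10.2 kb upstream of Aspn in an intron of Ecm2 (−log10 p 4.37).

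The Bgn locus (chrX:72427208-72634105) held 4 distal intervals in limb EGFP+, 6 in limb EGFP-, 3 in trunk EGFP+ and 2 in trunk EGFP- cells, in 7 regions. The strongest distal region, 8.59 kb upstream of Bgn (chrX:72517768-72518792), was called in all 4 lists with 24 reads (15.4 to 35.7) in both limb fractions, 20 (12.2 to 30.9) in trunk EGFP+ and 17 (9.90 to 27.2) in trunk EGFP- cells. Limb EGFP+ cells alone had a region 14.1 kb upstream (−log10 p 7.46), trunk EGFP+ cells alone one 0.941 kb downstream of the start (−log10 p 5.79), and limb EGFP- cells alone a pair 17.6 and 18.1 kb upstream (−log10 p 8.73 and 6.43). Those at 14.1 to 18.1 kb lay nearer to a start site of Haus7. The region 14.1 kb upstream began less than 500 bp from a region called in both limb fractions. That 0.941 kb downstream began less than 500 bp from the Bgn promoter region called in all 4 lists. Under joining within 500 bp, both would cease to be regions of EGFP+ cells only.

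Other leucine-rich repeat matrix genes were set beside the members. Of Ecm2, Optc, Chad, Chadl, Nyx, Tsku, Podn and Podnl1, 7 of 8 had a promoter interval in limb EGFP+, 4 in limb EGFP-, 7 in trunk EGFP+ and 3 in trunk EGFP- cells. Chad, which encodes the cartilage protein chondroadherin, was called in EGFP+ cells of both tissues only, with 65 reads in limb and 50 in trunk, as were its relative Chadl (64 and 44 reads) and Podn (13 and 13 reads). Optc, the neighbour of Prelp, was called in all 4 lists, and Ecm2, the neighbour of Aspn, in all but trunk EGFP-. Of the fibrillar collagen genes Col1a1, Col1a2, Col2a1, Col3a1, Col5a1, Col5a2, Col11a1 and Col11a2, 8 of 8 had a promoter interval in each EGFP+ list, 7 in limb EGFP- and 6 in trunk EGFP- cells.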

How the data were processed

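H3K27ac ChIP-seq libraries of 4 sorted cell populations, 1 each, were analysed from the deposited narrowPeak lists. According to the submitters' processing notes, reads were trimmed with cutadapt 1.18, aligned to GRCm39 with Bowtie2 2.3.5.1, filtered with SAMtools, and peaks called with MACS2 2.2.7.1. Per the study's methods, a similar number of reads was drawn at random from each library before mapping. The reads left for the caller were not matched, as its lowest local backgrounds differ between lists, and summit reads were not scaled for this. No control library is named. The peak names of the trunk EGFP- list carry a replicate number other than its label's, and read length and sonicator could not be assigned to single libraries.

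The deposited columns hold a fold ratio over the local background, the −log10 p and −log10 q that the authors' caller wrote, and an integer score, which was not used. Rows of one start and end were joined, keeping the highest summit. Reads at a summit (k) and the local background (b) were recovered by solving fold = (k + 1)/(b + 1) together with the upper Poisson tail for −log10 p, and 100% of intervals matched whole reads within 0.001. Intervals for reads are exact Poisson at 95%, cover counting error only, and reads are not independent molecules. Starts came from 67388 start sites of 21757 protein-coding genes of the GRCm39 annotation.

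The members and gene lists were chosen with earlier results of these data known. The regions named in the text are, per locus, up to 3 of highest −log10 p called in EGFP+ cells only and up to 3 in EGFP- cells only, and the strongest of any class, and all 10 members are named at promoters. Regions and genes beyond these were named after their values were seen. With 1 library per group no test was made. Limb and trunk share no library. Alternatives were a −log10 q of at least 5, equal list lengths, a fold of at least 4, other promoter and distal windows, nearest starts, and summits in place of intervals. A marker list and a region among those the rule names, the strongest of its class at its locus, are not reported here. Promoter sequences leave out the transcribed bases. Scripts, checked on simulated data, ran under Python 3.11.15 with matplotlib 3.10.9, scipy 1.17.1, pandas 2.3.3 and numpy 2.4.6.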

Additional observations from a re-analysis of the deposited data

Results flagged for a closer look

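For 6 members the difference in the number of distal intervals, EGFP+ minus EGFP-, had opposite signs in limb and trunk. It was -2 in the limb and 2 in the trunk for Epyc, -3 and 2 for Kera, and 3 and -2 for Dcn. It was 2 and -1 for both Omd and Ogn, and -2 and 1 for Bgn. With 1 library per population these differences between tissues were not tested. Epyc, Kera and Dcn share intervals, as do Omd and Ogn, so the 6 are not independent. For Omd and Ogn, limb EGFP+ cells had distal intervals at chr13:49762011-49762227 and chr13:49762284-49762796. In limb EGFP- cells most of that stretch lay in an interval (chr13:49761795-49762732) that reached the Ogn promoter window and was counted as a promoter interval. The limb difference of 2 thus depends on how this shared stretch was divided.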

How the results depend on the processing

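No paired analysis was possible because the populations share a single replicate number, with 1 library each. A comparison of the fractions across both tissues would rest on 2 pairs and was not made. Values below are in the order limb EGFP+, limb EGFP-, trunk EGFP+, trunk EGFP- unless named. At a −log10 q of at least 5 the members had 17, 14, 18 and 10 distal intervals, promoter calls fell to 4 in trunk EGFP+ and 3 in trunk EGFP- cells, and 9 regions were called in EGFP+ cells only, 7 in EGFP- cells only and 10 in both. With 30000 intervals per list limb EGFP+ cells had 18 distal intervals, the difference EGFP+ minus EGFP- turned to -7 for limb and -1 for trunk, and 13 regions were called in EGFP+ cells only. With 20000 the distal counts were 13, 14, 15 and 13, with differences of -1 (limb) and 2 (trunk), 3 promoter calls in trunk EGFP+ cells, and 7, 9 and 9 regions in EGFP+ cells only, EGFP- cells only and both. At a fold of at least 4 the distal counts were 10, 6, 8 and 5, with differences of 4 and 3, promoter calls, none of them for Prelp or Dcn, were 3 in limb EGFP-, 0 in trunk EGFP+ and 1 in trunk EGFP- cells, and regions were 11, 8 and 2. A promoter window of 1 kb upstream and 100 bp downstream left 3 calls in trunk EGFP- cells, and the 5′ end of the gene record alone left 4 in trunk EGFP+ cells. Within 50 kb of a start, trunk EGFP- cells had 20 distal intervals, the limb difference was 1 and 11 regions were called in both. With a member's start nearest the distal counts were 16, 14, 21 and 17 and the trunk difference was 4. Counting summits gave differences of 4 and 13. Joining regions within 500 bp gave 15 in EGFP+ cells only and 10 in EGFP- cells only.

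Among the loci, the difference at Omd, Ogn and Aspn turned to -2 in the limb with 30000 intervals and at a fold of at least 4, and to -1 in the trunk in both settings and within 50 kb, and to -2 with a member's start nearest. At Bgn the trunk difference turned to -1 with 30000 and with 20000 intervals, and the limb difference to 1 at a fold of at least 4. At Epyc, Kera, Lum and Dcn the trunk difference turned to 1 within 50 kb. The cause was not tested. The trunk excess at Fmod and Prelp kept its sign in every alternative run. As a share of all distal intervals of the list, however, that locus held 0.114% in trunk EGFP+ and 0.112% in trunk EGFP- cells, so that the excess in number went with the longer list.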
